A study of Saccharomyces cerevisiae with 17 samples.

Results

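The genes described here are 10 genes of the pentose phosphate pathway of budding yeast, out of 5656 genes with a probe set on the arrays. They comprise 4 pairs of paralogous enzymes (SOL3 and SOL4, GND1 and GND2, TKL1 and TKL2, TAL1 and NQM1) and the single genes ZWF1 and RKI1. The members were chosen by name, as the probe sets annotated to these genes, with earlier results of the same arrays in view. Their levels and changes are therefore given as descriptions with a standard error (SE) and without p-values. RNA came from strain CEN.PK113-7D, a haploid of genotype MATa MAL2-8C SUC2, grown on glucose as the limiting nutrient in chemostats without oxygen. In a chemostat medium flows in and culture flows out without pause, and all groups share the strain, the limiting nutrient and a dilution rate of 0.03 per h. Constant cultures (SS) were held at 12 or 30 °C. Cycling cultures (DTC) followed a 24-h sine wave of temperature and were sampled at 30 °C (hour 0), 21 °C on falling temperature (hour 6), 14.6 °C (hour 9), 12 °C (hour 12), 21 °C on rising temperature (hour 18) and 27.4 °C (hour 21). Each of these 8 groups had 2 arrays, and the hours were computed from the sine formula of the cultivation protocol. The series asks how such cycles act on the transcriptome and how far constant cultures predict it.

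The pentose phosphate pathway branches from glycolysis at glucose 6-phosphate. Its oxidative branch makes NADPH, the reductant of biosynthesis and of defence against oxidants, and ends in ribulose 5-phosphate. Its non-oxidative branch interconverts sugar phosphates and supplies ribose 5-phosphate for nucleotides and erythrose 4-phosphate for aromatic amino acids. In yeast several steps have a main enzyme and a paralog that contributes little activity in growing cells. GND1 and TKL1 are the main 6-phosphogluconate dehydrogenase and transketolase, with GND2 and TKL2 as minor forms. TAL1 is the main transaldolase and NQM1 its paralog, while SOL3 and SOL4 are paralogous 6-phosphogluconolactonases. SOL4, GND2, TKL2 and NQM1 are called minor paralogs below, and SOL3, GND1, TKL1 and TAL1 main paralogs.

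On the R64 reference, SOL3 (YHR163W) and GND1 (YHR183W) lie on chromosome VIII with 20 protein-coding genes between them. SOL4 (YGR248W) and GND2 (YGR256W) lie on chromosome VII with 7 protein-coding genes between them. Thus 2 successive oxidative steps have main paralogs near each other on one chromosome and minor paralogs near each other on another. NQM1 (YGR043C) is on chromosome VII as well, 200 protein-coding genes away from SOL4. TKL1 (YPR074C) is on chromosome XVI, TKL2 (YBR117C) on II and TAL1 (YLR354C) on XII. ZWF1 (YNL241C) is on XIV and RKI1 (YOR095C) on XV.

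The arrays were scaled alike before deposit, with trimmed means between 240.18 and 240.24, and replicate arrays correlated at 0.956 to 0.9842. Between 5305 and 5395 genes lay above a background signal of 10.46 on an array, and all 10 members did so on every array. The defining markers of a MATa haploid were high, with the a-factor gene MFA1 between 3589 and 10398 and the alpha-factor receptor gene STE2 between 403 and 1067. Of 3 transcripts typical of alpha cells, STE3 read between 34.9 and 113 and MF(ALPHA)1 between 192 and 2649, both above background on all 16 arrays, while MF(ALPHA)2 read between 8.4 and 27.7 and was above it on 12. MF(ALPHA)1 rose 11.37-fold in constant cold (limma, adjusted p = 2.94e-06) and 8.365-fold in the cold of the cycle (adjusted p = 8.26e-06). MF(ALPHA)2 rose at least 2.556-fold in constant cold (adjusted p = 0.000758), and STE3 fell 1.983-fold in the cold of the cycle (adjusted p = 0.0387). The part of these transcripts in the cold effects below was not tested. All 6 markers of growth without oxygen were above background on all 16 arrays. RNA is measured here in bulk, so fewer cells expressing a gene and less RNA per cell cannot be told apart. The arrays of the cycle came from 2 cultures that the labels do not assign to samples, so arrays at different hours are not fully independent.

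The minor paralogs moved together and much further than the main ones. SOL4, GND2, TKL2 and NQM1 were highest of all 8 groups at 21 °C on rising temperature, between 10.89-fold and 50.62-fold above their lowest group. RKI1 went the other way and was lowest at that hour. SOL3, GND1, TKL1 and TAL1 each varied by between 1.828-fold and 2.628-fold over the 8 groups. All signals below are linear, and all changes are differences of log2 group means from 1 limma fit over all genes.

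**Figure D1:**
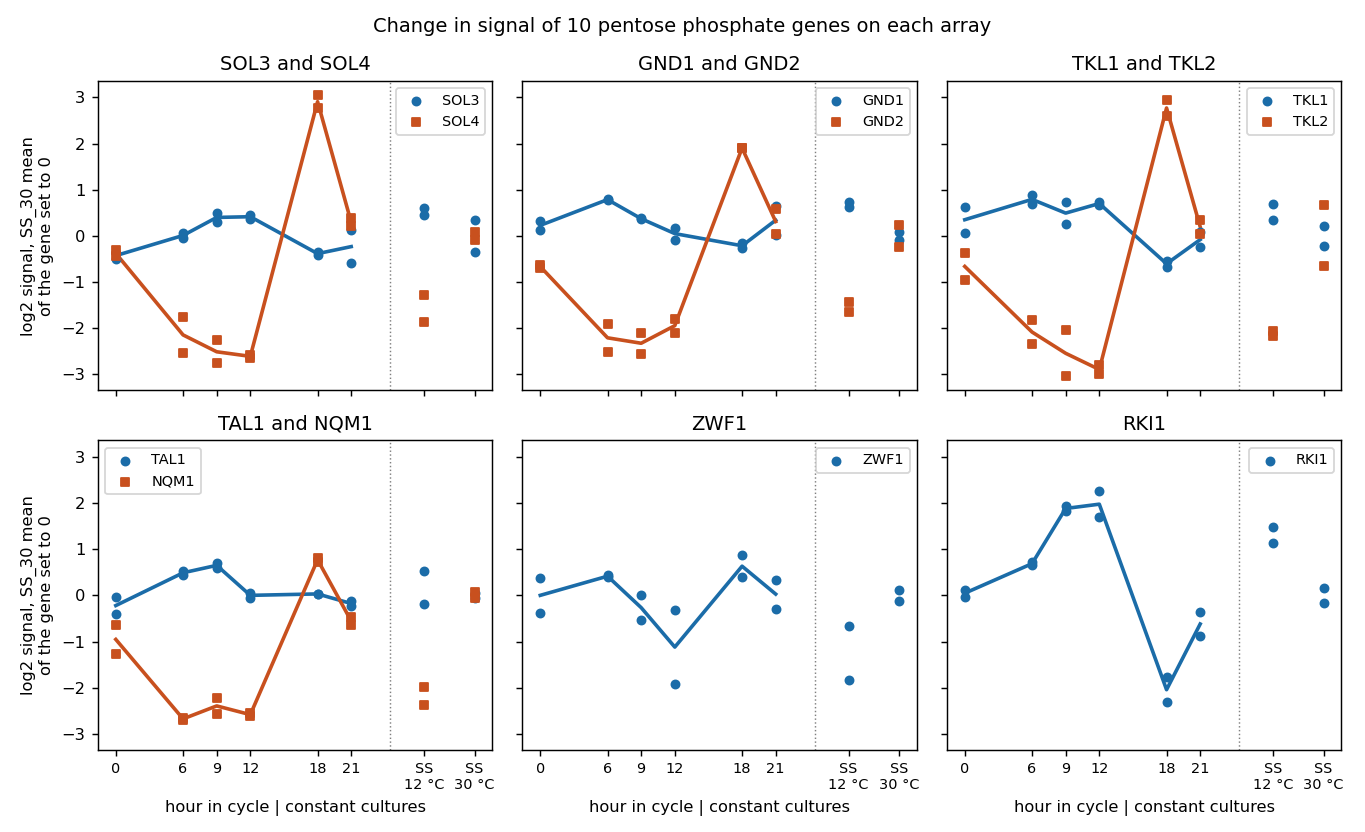
Log2 signal of each gene relative to its own mean at constant 30 °C, by hour in the cycle (points are arrays, lines join the means of 2 arrays) and, right of the dotted line, in constant cultures. Squares are the minor paralogs, which peak at hour 18 where RKI1 is lowest.

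ZWF1 encodes glucose 6-phosphate dehydrogenase, the entry step of the oxidative branch. Its signal was 296 and 660 at constant 12 °C against 1138 and 971 at constant 30 °C. In the cycle it read 805 and 1372 at hour 0, 1377 and 1426 at hour 6, 1059 and 721 at hour 9, 839 and 279 at hour 12, 1379 and 1921 at hour 18, and 1332 and 861 at hour 21. Its lowest group means were those at 12 °C, but the replicates at 12 °C lay far apart, and its pooled replicate SD of 0.584 on the log2 scale was the largest of the 10 members. At constant 12 minus 30 °C ZWF1 differed by -1.25 ± 0.505 (log2, SE, n = 2 arrays per group), and by -0.67 or -1.83 with the first or the second array at 12 °C left out. At hour 12 minus hour 0 of the cycle it differed by -1.12 ± 0.505 with overlapping arrays, and by -1.92 or -0.32 with the first or the second array of hour 12 left out. Neither difference was called. The ratio of 3′ to 5′ probe sets for the TATA-binding protein gene, a measure of RNA integrity, ranged from 2.01 to 5.67 over the arrays. In both 12 °C groups the dimmer ZWF1 array had the higher ratio (4.27 against 3.4 in constant and 5.09 against 4.19 in cycling cultures). The same ratio for the actin gene ranged from 1.16 to 1.82. For actin the dimmer ZWF1 array had the lower ratio at constant 12 °C (1.46 against 1.82) but the higher at hour 12 (1.37 against 1.19). Over the 8 groups, ZWF1 and TAL1 were brighter on the array with the lower TATA-binding protein ratio in 6 groups each. The other members were so in 2 to 5 groups. The part of RNA integrity in these values was not tested.

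The lactonase step follows. SOL4 read 73 and 109 at constant 12 °C and 282 and 251 at constant 30 °C. In the cycle it read 195 and 215 at hour 0, then 45.7 and 79.3 at hour 6, 39.3 and 55.6 at hour 9, and 42.7 and 44.6 at hour 12. On rewarming it reached 1806 and 2201 at hour 18 and was back at 308 and 346 at hour 21. Both arrays at hour 18 lay above every other array, and both arrays at 30 °C, constant or cycling, lay above every array at 21 °C on falling temperature or colder. From hour 12 to hour 18 SOL4 was 5.51 ± 0.289 (log2, SE) higher, which is 45.69-fold. SOL3 kept between 189 and 434 over all 16 arrays. Its highest group means were at 12 °C, with 434 and 390 in constant and 369 and 391 in cycling cultures. The lowest was at hour 0 with 203 and 222. The arrays of hour 12 overlapped those of hour 9 (402 and 352), and those of hour 0 overlapped those of hour 18. SOL3 was 0.80 ± 0.269 lower at hour 18 than at hour 12, so the lactonase paralogs moved in opposite directions across this step.

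GND2 and GND1 encode the 6-phosphogluconate dehydrogenases that yield ribulose 5-phosphate. GND2 read 104 and 121 at constant 12 °C and 381 and 277 at constant 30 °C. In the cycle it read 201 and 209 at hour 0, 56.8 and 87.2 at hour 6, 75.7 and 55.6 at hour 9, and 93.7 and 76.2 at hour 12. It then read 1208 and 1220 at hour 18 and 334 and 486 at hour 21. Hour 18 again stood above every other array, while the arrays of hour 6 overlapped those of hours 9 and 12. GND2 was 3.84 ± 0.278 higher at hour 18 than at hour 12, or 14.37-fold. GND1 kept between 1034 and 2165, with its highest group at hour 6 (2128 and 2165) and its lowest at hour 18 (1034 and 1114). It was thus lowest in the group in which GND2 was highest, and the highest and lowest group means of GND1 differed 2-fold.

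RKI1, ribose 5-phosphate isomerase, opens the way from ribulose 5-phosphate to ribose 5-phosphate. Its signal was 168 and 134 at constant 12 °C and 54 and 67.9 at constant 30 °C. In the cycle it read 59.3 and 65.9 at hour 0, 100.1 and 94.8 at hour 6, 216 and 231 at hour 9, and 289 and 195 at hour 12. It then read 17.7 and 12.2 at hour 18 and 47 and 33 at hour 21. Both arrays at hour 18 were below all others, and those at hours 9 and 12 were above all others. RKI1 was 4.02 ± 0.271 lower at hour 18 than at hour 12, or 16.18-fold, and its 2 arrays at hour 18 lay only just above the background signal of 10.46.

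Transketolase moves 2-carbon units between sugar phosphates. TKL2 was measured by 3 probe sets, of which the one with the highest mean represents it. It read 34.1 and 36.6 at constant 12 °C and 242 and 97.1 at constant 30 °C. In the cycle it read 119 and 79.4 at hour 0, 30.4 and 43.2 at hour 6, 37.1 and 18.7 at hour 9, and 22.1 and 19.3 at hour 12. It then read 1181 and 926 at hour 18 and 195 and 158 at hour 21. The arrays at hour 18 stood above all others, while the replicates at constant 30 °C differed more from each other than those of any other TKL2 group. TKL2 was 5.66 ± 0.419 higher at hour 18 than at hour 12, or 50.62-fold. The other two TKL2 probe sets gave 4.47 and 6.13 for this step, so the 3 sets shared its direction but not its size. The set that gave 6.13 read 13.1 and 9.3 at hour 12, near the background signal of 10.46, so its size is uncertain. TKL1 kept between 588 and 1729 over all arrays, highest at hour 6 (1512 and 1729) and lowest at hour 18 (588 and 644). Its 2 arrays at hour 18 were below all its other arrays, and TKL1 was 1.30 ± 0.262 lower there than at hour 12.

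Transaldolase, the other carbon-moving enzyme of the branch, is encoded by TAL1. NQM1 encodes its paralog. NQM1 read 116 and 88.5 at constant 12 °C and 479 and 438 at constant 30 °C. In the cycle it read 293 and 191 at hour 0, 73.2 and 70.3 at hour 6, 77 and 98.6 at hour 9, and 75.1 and 77.8 at hour 12. It then read 758 and 805 at hour 18 and 293 and 331 at hour 21. Hour 18 was once more above all other arrays, and constant 30 °C came next. NQM1 was 3.35 ± 0.237 higher at hour 18 than at hour 12, or 10.22-fold. TAL1 kept between 378 and 816, highest at hour 9 (759 and 816) and lowest at hour 0 (378 and 490). From hour 12 to hour 18 TAL1 differed by 0.03 ± 0.235 with overlapping arrays, an estimate whose sign turned under quantile normalization, so no direction is given.

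Rewarming from 12 to 21 °C was the largest step of the minor paralogs. Of the 10 members, 5 were called higher (ZWF1, SOL4, GND2, TKL2, NQM1) and 3 lower (SOL3, RKI1, TKL1) in the fit across all genes, in which 46.1% of genes were called at a Benjamini-Hochberg adjusted p under 0.05. The median log2 change of the members was 0.89, against -0.04 over all genes. ZWF1 was 1.75 ± 0.505 higher in this step and 0.96 without the second array of hour 12. Between hours 18 and 21 the minor paralogs came down again, SOL4 by 6.111-fold, TKL2 by 5.947-fold, GND2 by 3.014-fold and NQM1 by 2.508-fold. RKI1 was 2.68-fold higher at hour 21 than at hour 18. In that step 1 member was called higher and 4 lower, where 9.78% of all genes were called, and 3 members in all were called without the second array of hour 18. Both steps were added to the comparisons after the values had been seen, and both use the same arrays at hour 18.

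The 2 samplings at 21 °C share a temperature and differ in its direction and in the hour. With falling minus rising temperature, SOL4 differed by -5.05 ± 0.289 (log2, SE), TKL2 by -4.85 ± 0.419, GND2 by -4.11 ± 0.278 and NQM1 by -3.44 ± 0.237. In linear terms the rising point was 33.12-fold, 28.85-fold, 17.25-fold and 10.89-fold above the falling point for these 4 genes. RKI1 differed by 2.73 ± 0.271 and TKL1 by 1.39 ± 0.262, and GND1 was 2-fold higher on falling temperature, all without overlap of the arrays (as for 74.2% of all genes). SOL3 (0.39 ± 0.269), TAL1 (0.46 ± 0.235) and ZWF1 (-0.22 ± 0.505) were not called. Of the main paralogs, GND1 and TKL1 were thus called in the direction opposite to their minor paralogs. The fit called 3 members higher and 4 lower, where 33.9% of all genes were called, and the median change of the members was 0.09 against 0.04 over all genes. These differences reuse the arrays at hour 18 that also enter the rewarming steps.

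**Figure D2:**
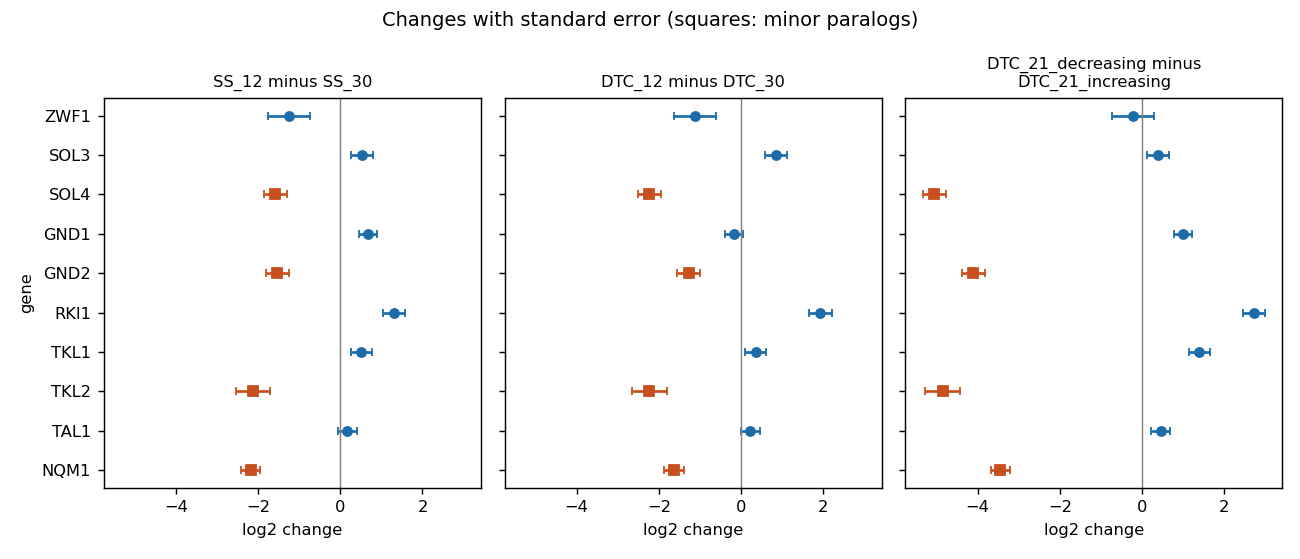
Log2 change (x axis) of each gene (y axis) in constant cultures at 12 minus 30 °C, in the cycle at 12 minus 30 °C, and at 21 °C on falling minus rising temperature. Points are differences of means of 2 arrays, bars are SE, and squares are the minor paralogs, which lie left of 0 in all 3 panels.

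Cold at constant temperature also went with lower signals of the minor paralogs. At 12 minus 30 °C, NQM1 differed by -2.18 ± 0.237, TKL2 by -2.12 ± 0.419, SOL4 by -1.58 ± 0.289 and GND2 by -1.53 ± 0.278. The main paralogs differed by 0.68 ± 0.222 for GND1, 0.53 ± 0.269 for SOL3, 0.52 ± 0.262 for TKL1 and 0.17 ± 0.235 for TAL1, and RKI1 by 1.31 ± 0.271. The GND1 value was 0.42 under quantile normalization. SOL3, TKL1 and TAL1 were not called, and with 1 array left out SOL3 came down to 0.18 (without the first array at 30 °C) and TAL1 to -0.19 (without the second at 12 °C), so no direction is given for TAL1. The arrays did not overlap for 9 of the 10 members and for 64.5% of all genes. The fit called 2 members higher and 4 lower, with 22.2% of all genes called, and the members' median was -0.54 against -0.01 over all genes.

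Between hours 12 and 0 of the cycle, the same 12 to 30 °C contrast gave -2.23 ± 0.289 for SOL4, -2.23 ± 0.419 for TKL2, -1.63 ± 0.237 for NQM1 and -1.28 ± 0.278 for GND2. RKI1 differed by 1.93 ± 0.271 and SOL3 by 0.84 ± 0.269. TKL1 (0.35 ± 0.262), GND1 (-0.18 ± 0.222), TAL1 (0.22 ± 0.235) and ZWF1 were not called, and the TKL1 value was 0.07 without the second array of hour 0. In the cycle 2 members were called higher and 4 lower, where 32.8% of all genes were called, with a members' median of -0.65 against 0.05 over all genes. By limma the cold effect in the cycle minus that between constant cultures was called for 0 of the 10 members and 12.9% of all genes. Its unadjusted p was under 0.05 for 1 of the 10 members and for 1618 of all 5656 genes. The differences of largest size were -0.86 ± 0.314 for GND1, -0.65 ± 0.409 for SOL4 and 0.62 ± 0.383 for RKI1. For GND1 the cold effect was above 0 in constant cultures and close to 0 in the cycle.

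At equal temperature, cycling and constant cultures differed less. At 30 °C the fit called 0 of the 10 members and 1.2% of all genes. Its unadjusted p was under 0.05 for 2 of the 10 members and for 651 of all 5656 genes. At hour 0 minus constant 30 °C the minor paralogs differed by -0.95 ± 0.237 for NQM1, -0.66 ± 0.278 for GND2, -0.66 ± 0.419 for TKL2 and -0.38 ± 0.289 for SOL4. The TKL2 value was -0.0015 or -1.32 with the first or the second array at constant 30 °C left out. The arrays did not overlap for 5 of the 10 members, among them SOL3 and GND1, and for 36.2% of all genes. At 12 °C the fit called 1 member, SOL4, at -1.03 ± 0.289 in cycling minus constant cultures, where 18.2% of all genes were called. This call was lost when the second array at constant 12 °C or either array of hour 12 was left out. By size TKL2 (-0.77 ± 0.419), RKI1 (0.66 ± 0.271) and GND1 (-0.63 ± 0.222) came next at 12 °C, and none of these 3 was called. The order of the group means of SOL4 was hour 18, hour 21, constant 30 °C, hour 0, constant 12 °C and then hours 6, 9 and 12, and the neighbours from constant 12 °C on overlapped.

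Because probe sets bind with different strength, paralogs were compared by their changes and not by their levels. The paralog gap is the log2 signal of the minor minus that of the main paralog, relative to its mean at constant 30 °C. It was highest at hour 18 in all 4 pairs. From hour 12 to hour 18 it rose by 6.97 ± 0.302 for TKL2 and TKL1, 6.31 ± 0.435 for SOL4 and SOL3, 4.11 ± 0.294 for GND2 and GND1 and 3.32 ± 0.38 for NQM1 and TAL1 (log2, SE from differences within arrays). Over the 8 groups the ratio of minor to main signal thus ranged 125-fold for the transketolases, 79.52-fold for the lactonases, 34.5-fold for the 6-phosphogluconate dehydrogenases and 14.95-fold for the transaldolase pair. By group mean the gap was lowest at hour 12 for the lactonases and transketolases, and at hour 6 for the other pairs. Only for the transketolases did the arrays of the lowest group not overlap those of hour 9.

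**Figure D3:**
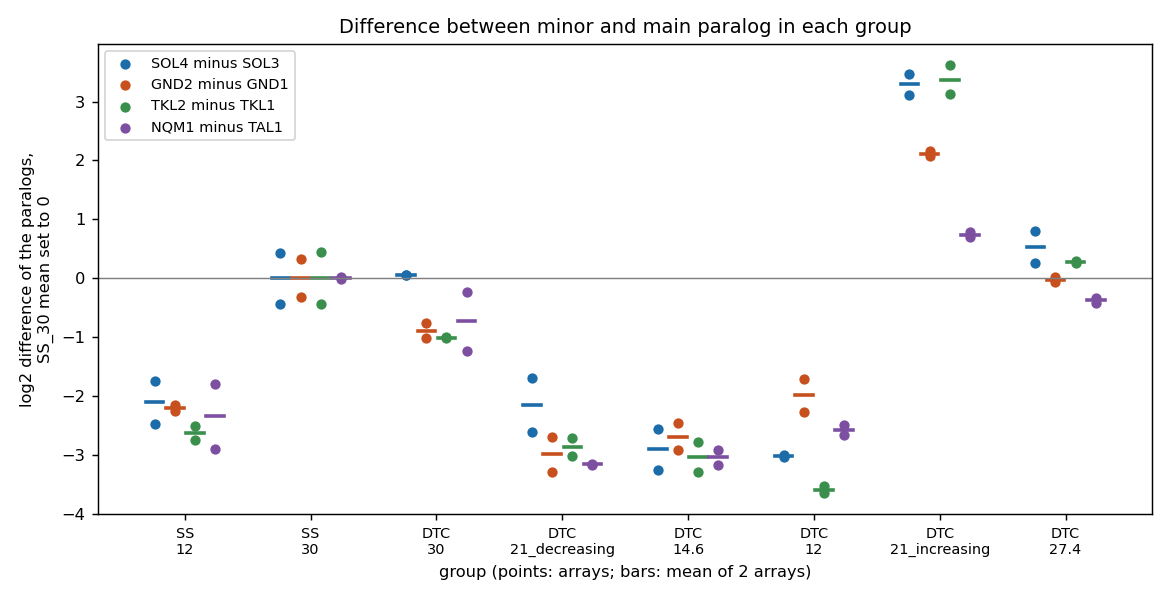
Paralog gap (log2 signal of the minor minus the main paralog, y axis, mean at constant 30 °C set to 0) in the 8 groups (x axis). Points are arrays and short bars are means of 2 arrays, and all 4 pairs are highest at DTC_21_increasing.

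At constant temperature the gap at 12 minus 30 °C was -2.63 ± 0.302 for the transketolases, -2.35 ± 0.38 for the transaldolase pair, -2.21 ± 0.294 for the 6-phosphogluconate dehydrogenases and -2.11 ± 0.435 for the lactonases. In the cycle it was -2.58, -1.85, -1.10 and -3.07 for the same pairs with the same SE. The pairs thus moved by similar amounts between constant temperatures and by more unequal amounts in the cycle. The GND gap differed by 1.11 ± 0.416 between both cold effects, to which GND1 contributed more than GND2. At 30 °C cycling minus constant cultures, the gap was -1.01 ± 0.302 for TKL, -0.89 ± 0.294 for GND, -0.73 ± 0.38 for NQM1 and TAL1, and 0.05 ± 0.435 for SOL.

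Paralog pairs of other pathways were set beside them as a description. Over 8 such pairs the range of the gap had a median of 2.08 (log2), against 5.71 over the 4 pentose phosphate pairs, and 4 of the 8 were highest at hour 18. PGM2 and PGM1, the phosphoglucomutases that link glucose 6-phosphate to glycogen and trehalose, had a range of 5.86 or 57.96-fold, within the span of the pentose phosphate pairs. GDH3 and GDH1, the NADPH-dependent glutamate dehydrogenases, had a range of 4.39 with the highest gap at hour 21. ENO1 and ENO2, the enolases, had the smallest range at 0.46. A wide gap was therefore not restricted to the pentose phosphate pairs.

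**Figure D4:**
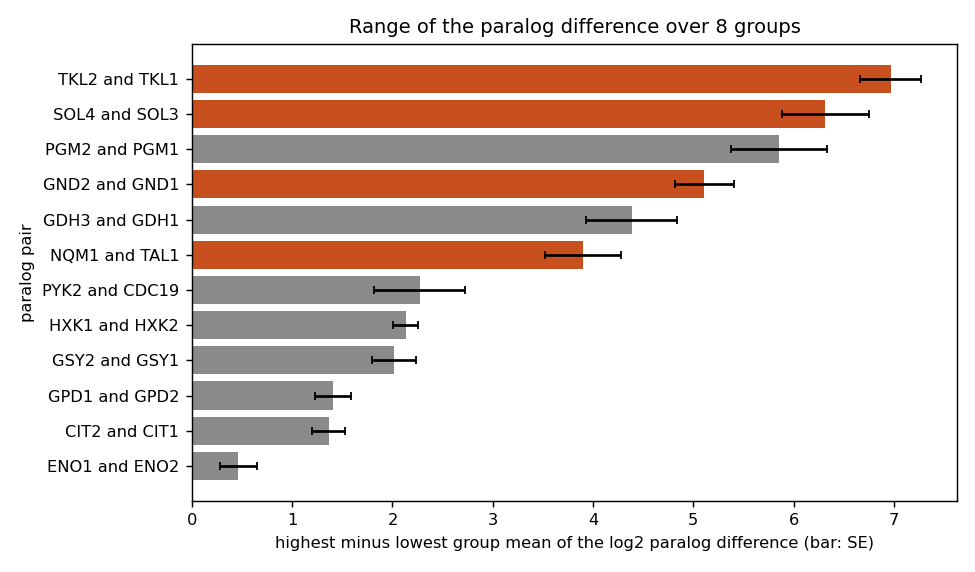
Range of the paralog gap over the means of 8 groups (x axis, log2 units, error bars are SE) for the 4 pentose phosphate pairs (orange) and 8 other enzyme pairs (grey, y axis). PGM2 and PGM1 at 5.86 lie among the pentose phosphate pairs, which run from 3.90 to 6.97.

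Across the whole array, the range of the 6 cycle means had a median of 1.15 (log2) over all genes and 2.60 over the 10 members. By this range TKL2 stood at percentile 99.84 of all genes, SOL4 at 99.77, GND2 at 98.69, RKI1 at 98.29 and NQM1 at 96.18. The main paralogs ranked far lower, TKL1 at 62.94, GND1 at 40.17, TAL1 at 30.55 and SOL3 at 28.8, with ZWF1 at 76.33. A 24-h cosine fitted to the 12 cycle arrays put the peaks of the minor paralogs between hour 18.88 (GND2) and hour 19.31 (NQM1). Fitted peaks lay at hour 8.262 for RKI1, 8.042 for TAL1, 10.52 for SOL3, 6.386 for TKL1 and 4.346 for GND1. The highest cycle mean was at hour 12 for RKI1, whose arrays overlapped those of hour 9, and at hour 6 for GND1. The cosine left part of the pattern out. It took up 86% of the variance of GND2, 71.95% for TKL2, 70.84% for RKI1, 64.13% for TAL1, 63.57% for GND1 and 20.31% for ZWF1.

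Over the 8 group means, Pearson correlations among the 4 minor paralogs were 0.954 to 0.995. Among the main paralogs they were 0.399 to 0.688, and between minor and main paralogs -0.97 to -0.484. RKI1 and TKL2 correlated at -0.976. These values describe 8 points, 6 of which come from the same cultures. Among 2000 genes with a mean above background and a group SD of at least 0.5, SOL4 was most like TKL2 (0.9946), followed by MLG1 (0.9944) and RTN2 (0.9933). GND2 was most like RTN2 (0.9945), TFS1 (0.9934) and YDL199C (0.9883), and NQM1 most like PAI3 (0.9839). RKI1 was most like NOP6 (0.9978), FCF2 (0.9971) and UTP23 (0.9963). The main paralogs had a group SD under 0.5, so they could not be named as alike and were themselves compared with 2001 genes. GND1 was most like HXK2 (0.9477), TKL1 most like GRC3 (0.9703), SOL3 most like NSG1 (0.97), TAL1 most like RNH201 (0.953) and ZWF1 most like ARG3 (0.9786).

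Other genes of the pathway and its surroundings were tested in the same fit, and adjusted p-values below are limma's with Benjamini-Hochberg adjustment over all genes. Of 9 other genes of pentose and sedoheptulose metabolism, 6 rose and 1 fell from hour 12 to hour 18, where 46.1% of all genes were called, with a median change of 1.37 against -0.04 over all genes. GRE3, an aldose reductase that reduces xylose, rose by 2.86 ± 0.280 (adjusted p = 6.42e-06), and GCY1, a related reductase, by 4.09 ± 0.341 (adjusted p = 2.04e-06). SHB17, sedoheptulose 1,7-bisphosphatase, which feeds carbon into ribose without the oxidative branch, fell by 1.75 ± 0.268 in this step (adjusted p = 0.000232), as RKI1 did. Unlike RKI1, SHB17 had no dip at hour 18, with log2 means of 8.41 there, 8.36 at hour 21 and 8.35 at hour 0. SHB17 rose by 1.82 ± 0.268 in the cold of the cycle (adjusted p = 0.000355) and by 0.92 ± 0.268 in constant cold (adjusted p = 0.0286). RPE1, the epimerase between ribulose and xylulose 5-phosphate and the remaining core gene, differed by 0.32 ± 0.425 on rewarming (adjusted p = 0.566) and was not called in the cold either.

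Genes that supply or use glucose 6-phosphate numbered 9, of which 5 rose and 1 fell from hour 12 to hour 18 (46.1% of all genes called). PGM2 rose by 4.61 ± 0.532 (adjusted p = 2.46e-05) while PGM1 fell by 1.25 ± 0.239 (adjusted p = 0.00118). At 21 °C HXK2, the main hexokinase, was 1.92 ± 0.208 higher on falling than on rising temperature (adjusted p = 2.8e-05), the same direction as GND1. In constant cold 2 of the 9 rose, a share near the 22.2% of all genes called. In the cold of the cycle 1 rose and 5 fell, where 32.8% of all genes were called. The medians were 0.36 and -0.77.

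Makers and users of NADPH outside the pathway numbered 13, of which 7 rose and 2 fell on rewarming (46.1% of all genes called). ALD6, the cytosolic aldehyde dehydrogenase that is the other large source of NADPH in yeast, fell by 3.19 ± 0.315 from hour 12 to hour 18 (adjusted p = 7.02e-06) and rose by 2.29 ± 0.315 in the cold of the cycle (adjusted p = 0.000238). In constant cold ALD6 differed by 0.45 ± 0.315 (adjusted p = 0.333). GDH3 rose by 3.60 ± 0.228 on rewarming (adjusted p = 3.47e-07) and fell by 2.71 ± 0.228 in constant cold (adjusted p = 1.24e-05), as the minor paralogs did. It also rose by 1.08 ± 0.228 from constant 30 °C to hour 0 (adjusted p = 0.0456), where the means of the minor paralogs differed with the opposite sign, and at hour 21 it differed from hour 18 by 0.37 ± 0.228 (adjusted p = 0.352).

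Of 10 genes that use ribose or erythrose phosphates, 7 were higher at 21 °C on falling than on rising temperature, where 33.9% of all genes were called, with a median of 1.20 against 0.04 over all genes. On rewarming 5 were lower and 0 higher, with a median of -1.10 against -0.04 over all genes. Of all 5656 genes, 1359 were called lower and 1246 higher in that step (46.1% called). In the cold of the cycle 3 were higher and 0 lower, where 32.8% of all genes were called in either direction. Constant cold gave 2 higher and 0 lower (22.2%), and hour 21 minus hour 18 likewise 2 higher and 0 lower (9.78%). At 21 °C PRS1, a phosphoribosyl pyrophosphate synthetase, was 1.18 ± 0.329 higher on falling than on rising temperature (adjusted p = 0.0153). In the same comparison ADE4 of purine synthesis was 1.76 ± 0.503 higher (adjusted p = 0.0175), and ARO4 of aromatic amino acid synthesis 1.41 ± 0.336 (adjusted p = 0.00649). Of 11 regulators, 4 rose on rewarming, where 46.1% of all genes were called. STB5, the activator of pentose phosphate genes under oxidant stress, differed by 0.63 ± 0.352 on rewarming (adjusted p = 0.163). CAT8, an activator of genes repressed by glucose, was at least 12.74-fold higher at hour 18 than at hour 12, where both its arrays lay under background.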

How the data were processed

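The authors deposited linear intensity values per probe set. Per the submitters' processing notes RMA was used. The values reach 0 and share trimmed means, so how the authors scaled them is not given in the sources used here, and neither is a genome build. Intensity under 1 was set to 1 and log2 was taken. Of 9335 probe sets, 6504 had 1 gene, 328 had several and 60 were controls. The probe set with the highest mean represented a gene. Names were updated to R64, used only for names, chromosomes and gene order. As background served percentile 95 of the mean signals of 28 controls.

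limma 3.58.1 (R 4.3.3) fitted 1 mean per group over 16 arrays (8 residual degrees of freedom, two-sided tests, Benjamini-Hochberg adjustment), and was tested on simulated data. The number of arrays limits the precision. For cycle arrays p-values treat samples of 2 cultures as independent. Array 3 at 27.4 °C was not used in the fit, because the design mentions 1 extra analytical duplicate there without saying which array it is. Members, lists and pairs were chosen with earlier results of these data known, and both rewarming steps were added after values were seen. Named besides the members were up to 2 called higher and 2 called lower of largest size per list in either cold effect, 10 index genes, the genes of the pairs and the 3 genes most like each member. The text gives a selection. Alternatives covered normalization, the floor, probe set choice, dim genes, the variance model, the groups fitted, array 3, a replicate block and each array left out.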

Additional observations from a re-analysis of the deposited data

Results flagged for a closer look

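For 9 of the named genes outside the members, the cold effect in the cycle differed from that between constant cultures by limma's test of the difference (Benjamini-Hochberg adjusted over all genes, SE from 2 arrays per group). No member was called for this difference, where 12.9% of all genes were called. The count of 9 was not set against the number of named genes. The glucose-phosphorylating enzymes HXK2 (-1.87 ± 0.294, adjusted p = 0.00238), HXK1 (-1.59 ± 0.290, adjusted p = 0.00536) and GLK1 (-1.46 ± 0.395, adjusted p = 0.0323) had lower changes in the cycle. HXK2 changed by 1.10 in constant cold and by -0.77 in the cold of the cycle. The glycogen synthases GSY1 (-1.66 ± 0.411, adjusted p = 0.021) and GSY2 (-1.95 ± 0.405, adjusted p = 0.00939) differed likewise, with changes of 1.42 and 1.08 in constant cold and of -0.24 and -0.87 in the cycle. The reductase GCY1 differed by -2.71 ± 0.482 (adjusted p = 0.00482) and the citrate synthase CIT1 by -1.92 ± 0.278 (adjusted p = 0.00158). ALD6 differed by 1.84 ± 0.446 (adjusted p = 0.0191) and PGM1 by 1.16 ± 0.338 (adjusted p = 0.0441), both with the larger cold effect in the cycle.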

How the results depend on the processing

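The changes of SOL4, GND2, TKL2 and NQM1 from hour 12 to hour 18 and between both 21 °C points kept their sign under every alternative run, at 5.36 to 5.66, 3.67 to 3.99, 5.42 to 5.84 and 3.21 to 3.47 for the rewarming step. Fitting only the groups compared called 685 genes in constant cold (1256 with all groups), 782 in the cold of the cycle (1855), 343 for the difference of both (729), 1 from hour 18 to 21 (553), 0 for cycling at 12 °C (1029, with 1568 at an unadjusted p under 0.05) and 0 for cycling at 30 °C (68, with 448 unadjusted). Of the members it called 0 for cycling at 12 °C (3 unadjusted) and 0 from hour 18 to 21 (5 unadjusted). Fewer residual degrees of freedom are part of that setting. For cycling at 12 °C, 2 members were called with a floor of 12 and 2 with an intensity trend and robust prior, which called 106 genes for cycling at 30 °C. Including array 3 called 855 genes from hour 18 to 21. Quantile normalization gave paralog gaps of -2.32 for TKL in constant cold, and of 0.73 for GND and -0.32 for TKL in the difference of cold effects. It shifted the median change of all genes by at most -0.116 (for the difference of cold effects) and centring on array medians by at most -0.169 (likewise). Centring moved the share of called genes that were higher from 44.9% to 56.3% in constant cold, 27.9% to 42.6% for cycling at 30 °C, 50.9% to 36% for the difference of cold effects and 66.4% to 56.3% from hour 18 to 21.

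Leaving out each array in turn, called genes ran from 565 to 1360 in constant cold, 1225 to 1911 in the cold of the cycle, 410 to 753 for their difference, 15 to 71 for cycling at 30 °C, 365 to 1168 for cycling at 12 °C and 157 to 645 from hour 18 to 21. Members called ran from 0 to 2 for cycling at 12 °C and from 3 to 6 from hour 18 to 21. In constant cold the gap ran from -2.53 to -1.89 for GND, -3.08 to -2.19 for TKL and -2.90 to -1.80 for NQM1 and TAL1, which ran from -2.35 to -1.35 in the cycle. For cycling at 30 °C it ran from -1.22 to -0.57 for GND, -1.46 to -0.57 for TKL and -1.23 to -0.24 for NQM1 and TAL1, and for the last pair from -0.79 to 0.32 at 12 °C. At 21 °C it ran from -5.90 to -4.99 for SOL and -5.41 to -4.81 for GND. In the difference of cold effects it ran from 0.79 to 1.43 for GND, -0.39 to 0.50 for TKL and -0.053 to 1.05 for NQM1 and TAL1, with the lowest value without the second array at constant 12 °C. The change of SOL3 there ran from -0.036 (without the second array at constant 30 °C) to 0.66. The cause of these shifts was not tested.

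With the replicate block, 1853 genes were called in the cold of the cycle, and no count of calls moved by over 1.5 times. Same-numbered arrays correlated in their deviations at -0.4 to 0.491 over 28 pairs of groups, so the numbers were not taken to pair arrays, and which cycle arrays share a culture is not known. The 2 arrays per group limit all values, and RKI1 at hour 18 lies near background.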

Other observations

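The array numbered 3 at 27.4 °C entered no comparison. It lay within the range of the other two arrays of that hour for 6 of the 10 members. SOL4 read 377 and NQM1 350.1 on it, above both other arrays, while TKL2 read 147 and RKI1 26, below both. The largest distance from the mean of the other arrays was -0.60 on the log2 scale, for RKI1.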
